A study of Homo sapiens with 9 samples.

Results

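The 9 genes described here encode the UPF and SMG factors of nonsense-mediated mRNA decay (NMD): UPF1, UPF2, UPF3A, UPF3B, SMG1, SMG5, SMG6, SMG8 and SMG9. They were taken by symbol from a table of 60708 genes, and all 9 were among the 20812 genes that passed the filter on low counts. The cells were MDA-MB-231, a line from a human triple-negative breast cancer, given the splicing inhibitor pladienolide B (PdB), which binds the SF3B complex of the U2 snRNP. The 3 groups, each of 3 libraries, were cells given 10 nM PdB for 16 h (PdB), cells collected 24 h after such treatment (recovery), and cells given the vehicle DMSO. No time is given for DMSO, and the same DMSO group was set against both PdB and recovery. In recovery against DMSO, past treatment and time in culture thus cannot be told apart. The labels name no allele or transgene, and all groups came from this one line. Nothing in them ties the replicates to separate cultures, so p-values measure only the spread between these libraries, which may be technical.

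NMD destroys mRNAs on which a ribosome stops at a premature or otherwise unusual stop codon. UPF1, an RNA helicase, is loaded at such a stop, and UPF2 and UPF3B link it to exon junction complexes, the protein marks that splicing leaves on mRNA. The kinase SMG1, held in a complex with SMG8 and SMG9, phosphorylates UPF1, which then recruits the endonuclease SMG6 or the adaptor SMG5. Many products of faulty splicing carry premature stops, and in human cells the mRNAs of several NMD factors are themselves degraded by NMD.

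Sequence similarity limits how reads of SMG1 can be assigned, since it has near-identical pseudogene copies on the same chromosome. Of 10884 windows of 100 bases in its coding sequence, 1743 (16.0%) stood unchanged in an annotated transcript of at least 1 of the copies SMG1P1 to SMG1P7, and none of the windows of the other 8 members did. The pair below is shown because reads from it cannot be told apart except over the capital letter, the 1 base of 120 at which they differ. It lies in exon 2 of the SMG1 coding transcript (GRCh38, chr16:18896810-18896929, minus strand) and in exon 3 of an SMG1P1 transcript (chr16:22454729-22454848, plus strand), as given by GENCODE 29.
SMG1: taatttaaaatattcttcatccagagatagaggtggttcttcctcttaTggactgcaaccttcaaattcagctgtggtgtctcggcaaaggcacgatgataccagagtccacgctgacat
SMG1P1: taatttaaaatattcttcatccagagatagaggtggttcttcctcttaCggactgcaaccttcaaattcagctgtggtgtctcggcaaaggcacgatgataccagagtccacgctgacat

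The paralogs UPF3A and UPF3B are a contrasting case. Their coding sequences were identical at 889 of 1305 aligned bases (68.1%), and the longest stretch without a difference was 16 bases, given in capitals with 20 bases on each side. Both pieces span the junction of exons 4 and 5, on chromosome 13 for UPF3A (114286377 to 114286550, plus strand) and on the X chromosome for UPF3B (119843270 to 119845221, minus strand).
UPF3A: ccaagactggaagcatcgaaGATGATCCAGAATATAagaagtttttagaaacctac
UPF3B: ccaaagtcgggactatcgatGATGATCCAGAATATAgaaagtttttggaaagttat

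The libraries held 56389689 to 67047079 counts. Markers of the line (VIM, CD44, AXL, FN1, EGFR and CAV1) were all present, at 115 to 2909 CPM (TMM-scaled, each count as a share of its library's scaled total). Their sum was 5762 to 5860 CPM in PdB, 3547 to 3660 CPM at recovery and 7436 to 7508 CPM in DMSO, and its part in the changes below was not tested. In bulk RNA, fewer cells of a kind and less RNA per cell cannot be told apart. ESR1 had no counts, PGR stayed at or below 0.0634 CPM and CDH1 at or below 1.39 CPM, while EPCAM lay between 2.17 and 6.51 CPM. Of 6 markers of leukocytes and endothelium, CD68 lay between 82.3 and 139 CPM and the other 5 at or below 1.03 CPM. Levels are CPM, log2 changes are ± SE and means are ± SD with n = 3 libraries per group. Adjusted p-values are from edgeR's quasi-likelihood test over all genes.

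**Figure D1:**
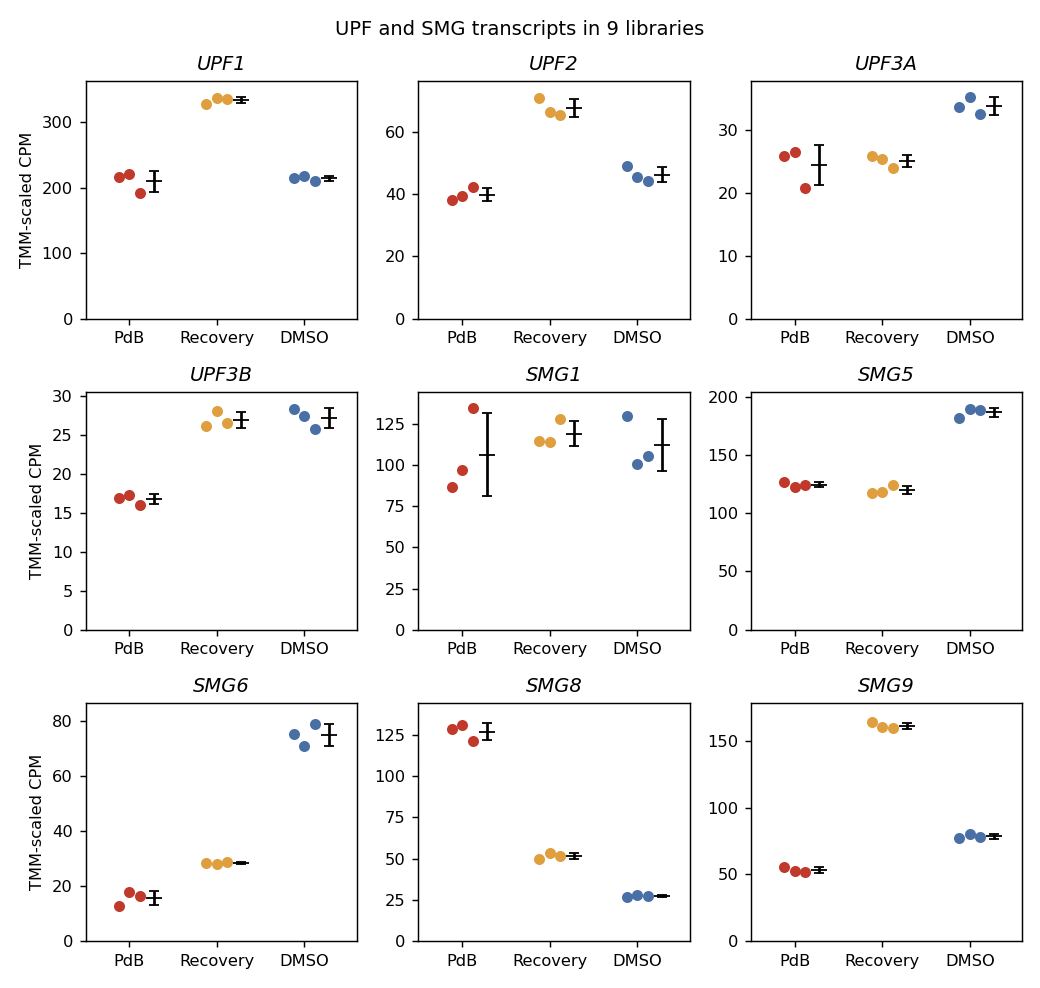
TMM-scaled CPM of each member in the 3 PdB, 3 recovery and 3 DMSO libraries (points), with the mean and SD of each group (black bar). SMG8 is highest in PdB at 121 to 131 CPM, SMG6 is lowest there at 12.8 to 17.7 CPM, and UPF1, UPF2 and SMG9 are highest at recovery.

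UPF1, the helicase at the centre of the pathway (ENSG00000005007.13, chromosome 19, 18831938 to 18868236), was close to its vehicle level under PdB and higher at recovery. It had 216, 221 and 192 CPM in PdB, 328, 336 and 336 CPM at recovery and 214, 217 and 209.7 CPM in DMSO. The PdB and DMSO libraries overlapped, and every recovery library lay above all others. The log2 change of PdB against DMSO was -0.032 ± 0.052 and did not pass the test (adjusted p = 0.60). Its sign depended on the scaling, with 0.12 under upper-quartile factors (adjusted p = 0.043) and -0.23 with library totals (adjusted p = 0.00021). At recovery UPF1 rose 1.56-fold over DMSO (0.64 ± 0.052, adjusted p = 3.9e-09).

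UPF2, the bridge between UPF1 and the exon junction complex (ENSG00000151461.20, chromosome 10, 11920022 to 12043170), fell slightly under PdB and rose at recovery. It had 38.0, 39.2 and 42.2 CPM in PdB, 71.0, 66.3 and 65.5 CPM at recovery and 48.9, 45.4 and 44.2 CPM in DMSO. None of the groups overlapped. The fall under PdB was small (-0.21 ± 0.065, adjusted p = 0.0067), and the call ended under 6 alternatives, among them RLE factors (-0.12, adjusted p = 0.11), upper-quartile factors (-0.065, adjusted p = 0.40) and DESeq2 (-0.12, adjusted p = 0.11). The rise at recovery over DMSO was 1.46-fold (0.55 ± 0.064, adjusted p = 5.3e-07).

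UPF3B, which ties UPF2 to the exon junction complex (ENSG00000125351.13, X chromosome, 119805311 to 119852998), fell under PdB and was back near the vehicle level at recovery. It had 16.9, 17.3 and 16.0 CPM in PdB, 26.1, 28.04 and 26.5 CPM at recovery and 28.2, 27.4 and 25.8 CPM in DMSO. The PdB libraries were below all others, and those of recovery and DMSO overlapped. PdB libraries held 61.8% of the DMSO level (-0.70 ± 0.077, adjusted p = 1.8e-07). Recovery against DMSO did not pass the test (-0.013 ± 0.075, adjusted p = 0.89), and recovery exceeded PdB by 0.68 ± 0.077 (adjusted p = 2.6e-07).

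Its paralog UPF3A, a weaker activator that can also act as a repressor of NMD (ENSG00000169062.15, chromosome 13, 114281584 to 114305817), was lower than in DMSO both under PdB and at recovery. It had 25.9, 26.5 and 20.8 CPM in PdB, 25.9, 25.3 and 24.0 CPM at recovery and 33.6, 35.2 and 32.5 CPM in DMSO. Libraries of PdB and recovery overlapped, and all lay below DMSO. The fall was -0.47 ± 0.088 under PdB (adjusted p = 0.00011) and -0.43 ± 0.087 at recovery (adjusted p = 0.00031), both against DMSO. Between recovery and PdB the change did not pass the test (0.038 ± 0.088, adjusted p = 0.72), but with library totals it did (0.31, adjusted p = 0.0034).

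Among the subunits of the kinase complex, SMG8 and SMG9 moved in opposite directions under PdB while SMG1 did not pass the test. SMG8, which restrains the kinase (ENSG00000167447.13, chromosome 17, 59209400 to 59215247), had 129, 131 and 121 CPM in PdB, 49.8, 53.4 and 51.4 CPM at recovery and 26.4, 27.9 and 27.4 CPM in DMSO. The 3 groups were far apart, and no other member rose under PdB. SMG8 was 4.66-fold higher in PdB than in DMSO (2.22 ± 0.058, adjusted p = 4.6e-16) and still 1.89-fold higher at recovery than in DMSO (0.92 ± 0.057, adjusted p = 1.1e-10). At recovery it was below PdB, at 40.6% of the PdB level (SE 0.056 on the log2 scale, adjusted p = 4.1e-13). In the annotation, 422 bases of SMG8 exons (11.2%) are shared with AC099850.2, a gene on the same strand. That gene had 27.6 ± 2.38 CPM in PdB and 36.3 ± 3.21 CPM in DMSO (-0.40 ± 0.081, adjusted p = 0.00027), a change opposite to that of SMG8.

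SMG9, the other small subunit (ENSG00000105771.14, chromosome 19, 43727992 to 43754990), fell under PdB and then passed its vehicle level. It had 55.8, 52.3 and 51.9 CPM in PdB, 164, 160.4 and 160.1 CPM at recovery and 77.3, 80.3 and 77.7 CPM in DMSO. No libraries of different groups overlapped. PdB held 68.0% of the DMSO level (-0.56 ± 0.051, adjusted p = 1.3e-08). Recovery was 2.06-fold above DMSO (1.04 ± 0.050, adjusted p = 3.7e-12) and 3.03-fold above PdB (1.60 ± 0.051, adjusted p = 1.0e-14).

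SMG1, the kinase that phosphorylates UPF1 (ENSG00000157106.17, chromosome 16, 18804853 to 18926454), varied most between replicates. It had 86.9, 97.3 and 135 CPM in PdB, 115, 114 and 128 CPM at recovery and 130.03, 101 and 106 CPM in DMSO. All groups overlapped, and PdB replicate 3 held the highest value of the 9. No comparison passed the test, with -0.077 ± 0.12 for PdB against DMSO (adjusted p = 0.58) and 0.086 ± 0.12 for recovery against DMSO (adjusted p = 0.55). Without PdB replicate 3, PdB against DMSO passed at -0.28 (adjusted p = 0.0052) and recovery against PdB at 0.37 (adjusted p = 0.00061). Recovery against PdB also passed with library totals (0.43, adjusted p = 0.0092) and without a filter (0.18, adjusted p = 0.0053).

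The SMG1 copies were counted at lower levels and did not follow SMG1. Together they held 21.5 to 29.2% of the summed counts of SMG1 and its copies in PdB libraries, 18.5 to 23.1% at recovery and 12.2 to 14.7% in DMSO. Of the 7 copies, 6 passed the filter on low counts. Under PdB 4 of these rose and 0 fell, where 32% of all genes rose and 38.2% fell. At recovery against DMSO 3 rose and 1 fell, where 30.7% of all genes rose and 30.5% fell. SMG1P7 had 6.88 ± 1.195 CPM in PdB, 10.9 ± 1.32 CPM at recovery and 1.16 ± 0.421 CPM in DMSO, a log2 change of 2.57 ± 0.22 for PdB and 3.23 ± 0.22 for recovery against DMSO. SMG1P6 fell at recovery against DMSO (-1.02 ± 0.14, adjusted p = 2.9e-06). Since reads may be shared between copies, values of SMG1 and of each copy are uncertain. With the counts of all copies added to SMG1, PdB against DMSO was 0.13 in place of -0.077 and still did not pass the test (adjusted p = 0.24).

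The factors that act on phosphorylated UPF1 were both lower, most of all SMG6. SMG6, the endonuclease that cuts the target mRNA near the stop codon (ENSG00000070366.14, chromosome 17, 2059839 to 2303771), had 12.8, 17.7 and 16.2 CPM in PdB, 28.5, 27.9 and 28.7 CPM at recovery and 75.3, 70.9 and 79.0 CPM in DMSO. All 3 groups were apart. PdB held 20.7% of the DMSO level (-2.27 ± 0.094, adjusted p = 1.6e-13), and recovery held 37.8% of it (-1.41 ± 0.090, adjusted p = 1.6e-10). Recovery exceeded PdB by 0.86 ± 0.093 on the log2 scale (adjusted p = 1.5e-07). HIC1, on the opposite strand, shares 2419 exonic bases (22.9%) with SMG6 and was counted at 7.65 ± 0.521 CPM in PdB, 4.52 ± 0.570 CPM at recovery and 5.37 ± 0.391 CPM in DMSO. Whether counting used strand is not given in the sources used here.

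SMG5, the adaptor that leads UPF1 targets to decapping and deadenylation (ENSG00000198952.8, chromosome 1, 156249224 to 156282825), was lower than in DMSO both under PdB and at recovery. It had 126, 123 and 124 CPM in PdB, 118, 118 and 124 CPM at recovery and 182, 189 and 188 CPM in DMSO. Libraries of PdB and recovery overlapped, and all were below DMSO. The change was -0.58 ± 0.046 under PdB (adjusted p = 1.9e-09) and -0.64 ± 0.046 at recovery (adjusted p = 9.3e-10), both against DMSO. Recovery against PdB did not pass the test (-0.055 ± 0.046, adjusted p = 0.31). It passed with upper-quartile factors (-0.13, adjusted p = 0.018) and, in the opposite direction, with library totals (0.21, adjusted p = 0.00055).

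Counted over the 9 members, PdB against DMSO gave 1 rise (SMG8) and 6 falls, with UPF1 and SMG1 not called. Among all genes tested, 32% rose and 38.2% fell, and 70.1% were called in either direction. The median log2 change was -0.47 for the members and -0.11 for all genes, and the members ran from -2.27 to 2.22. That of all genes depended on the scaling, with -0.014 under RLE factors, 0.039 under upper-quartile factors and -0.31 with library totals. Groups did not overlap for 7 members, against 72.5% of all genes, so the share of members apart was near that of all genes. The 6 falls were UPF2, UPF3A, UPF3B, SMG5, SMG6 and SMG9, and 5 of them held under RLE and upper-quartile factors.

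Recovery against DMSO gave 4 rises (UPF1, UPF2, SMG8 and SMG9) and 3 falls (UPF3A, SMG5 and SMG6). In all genes, 30.7% rose and 30.5% fell, with 61.2% called. The median change was 0.086 for the members and 0.026 for all genes, and 7 members had groups without overlap, against 70.4% of all genes. The member counts of 4 and 3 were the same under each scaling tried. Recovery against PdB gave 5 rises (UPF1, UPF2, UPF3B, SMG6 and SMG9) and 1 fall (SMG8), where 34.6% of all genes rose, 31.5% fell and 66.1% were called. Groups did not overlap for 6 members, against 70.5% of all genes. With library totals 8 members rose in that comparison, and over all genes 8862 rose and 4876 fell, in place of 7204 and 6563. The median change there was 0.67 for the members and 0.062 for all genes, which library totals moved to 0.33. The comparisons share libraries, so their counts are not independent of each other.

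**Figure D2:**
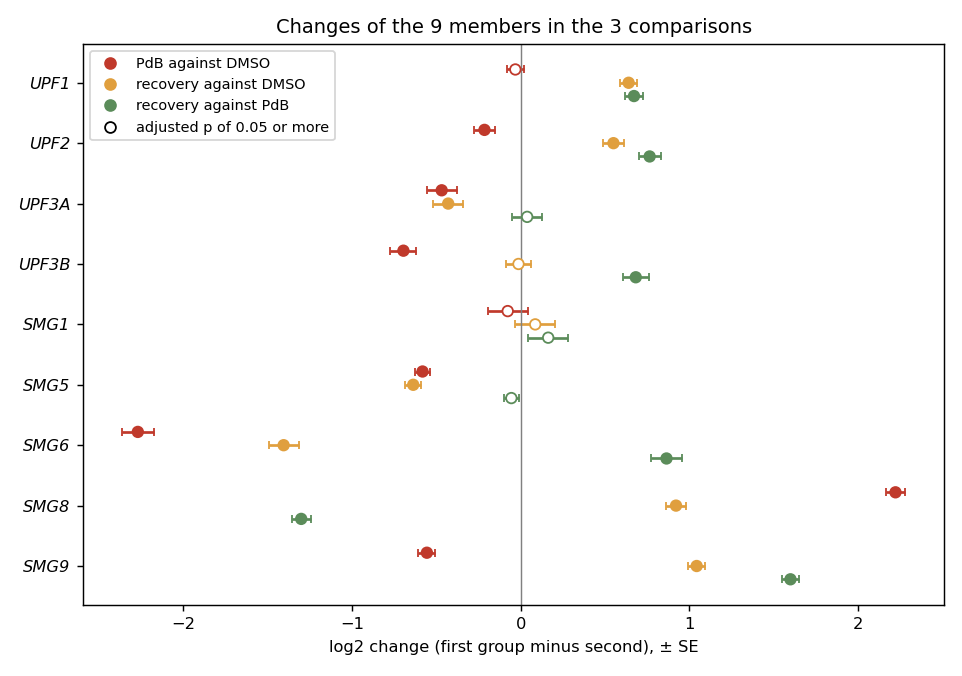
Log2 change ± SE of each member in the 3 comparisons of groups, with open points where the adjusted p was 0.05 or more. SMG6 and SMG8 lie at the 2 ends, at -2.27 and 2.22 for PdB against DMSO, and SMG1 has open points in all 3 comparisons.

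Levels of different genes were compared as CPM per kilobase of annotated exon. In PdB SMG8 was highest (33.8 ± 1.36), followed by UPF1 (24.3 ± 1.81) and SMG5 (23.5 ± 0.346), whose ranges overlapped. At recovery UPF1 led with 38.8 ± 0.533, followed by SMG5 at 22.6 ± 0.710 and SMG9 at 20.4 ± 0.291. In DMSO SMG5 led with 35.1 ± 0.756, followed by UPF1 at 24.9 ± 0.457, and SMG1 was lowest at 4.31 ± 0.605. SMG8 stood at place 6 of 9 in DMSO, at 7.26 ± 0.202, next to SMG6 at 7.11 ± 0.384, and these neighbours did not differ beyond their spread. SMG6 was the lowest of the 9 in PdB (1.48 ± 0.241) and at recovery (2.69 ± 0.0393). Per kilobase of coding sequence instead, UPF1 led in PdB and DMSO and SMG9 at recovery, at 104 CPM per coding kilobase against 98.4 for UPF1. SMG8 was then lowest in DMSO, at 9.16, and at place 7 at recovery, so the order of the members depends on the length used, also for genes far apart.

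The sum of the members depended on the unit. Per exonic kilobase it was 110.3 ± 2.80 CPM per kilobase in PdB, 127 ± 0.758 at recovery and 111 ± 0.938 in DMSO, with PdB and DMSO overlapping. As plain CPM it was 707 to 725 in PdB, 926 to 944 at recovery and 790 to 816 in DMSO, with no overlap. SMG8 made up 30.7% ± 0.457 of the sum per kilobase in PdB, 10.8% ± 0.336 at recovery and 6.54% ± 0.190 in DMSO. UPF1 made up a share close to its DMSO level in PdB (22.03% ± 1.10), 30.5% ± 0.250 at recovery and 22.4% ± 0.228 in DMSO. SMG5 made up 21.3% ± 0.652 in PdB, 17.7% ± 0.491 at recovery and 31.6% ± 0.780 in DMSO.

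Ratios of partners within a library do not depend on the scaling between libraries. They were tested for a difference in any direction between the 3 groups by exact permutation over all assignments of the 9 libraries. The statistic was the sum of squares between groups, with adjustment over 5 ratios. SMG8 to SMG1, counts per exonic kilobase, was 10.2, 9.33 and 6.24 in PdB, 3.003, 3.24 and 2.79 at recovery and 1.41, 1.92 and 1.80 in DMSO (exact permutation p = 0.0036, the smallest this design can give, adjusted p = 0.0060). The groups did not overlap. SMG6 to SMG5 was 0.0508, 0.0726 and 0.0658 in PdB, 0.122, 0.119 and 0.116 at recovery and 0.208, 0.189 and 0.211 in DMSO (exact permutation p = 0.0036, adjusted p = 0.0060). In every PdB and recovery library the endonuclease was thus lower relative to the adaptor than in any DMSO library.

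The other subunit of the kinase complex and the UPF3 paralogs followed other courses. SMG9 to SMG1 was 2.10, 1.76 and 1.26 in PdB, 4.69, 4.60 and 4.11 at recovery and 1.95, 2.61 and 2.41 in DMSO (exact permutation p = 0.0071, adjusted p = 0.0089). Recovery stood above the other groups, which overlapped. UPF3A to UPF3B was 0.819, 0.818 and 0.690 in PdB, 0.529, 0.482 and 0.484 at recovery and 0.635, 0.688 and 0.673 in DMSO (exact permutation p = 0.0036, adjusted p = 0.0060). All PdB libraries lay above DMSO and all recovery libraries below it, but PdB replicate 3 (0.690) was barely above DMSO replicate 2 (0.688). UPF2 to UPF1 was 0.256, 0.259 and 0.321 in PdB, 0.315, 0.287 and 0.284 at recovery and 0.332, 0.304 and 0.307 in DMSO, and the groups overlapped (exact permutation p = 0.29, adjusted p = 0.29). Without PdB replicate 3 its adjusted p was 0.014.

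**Figure D3:**
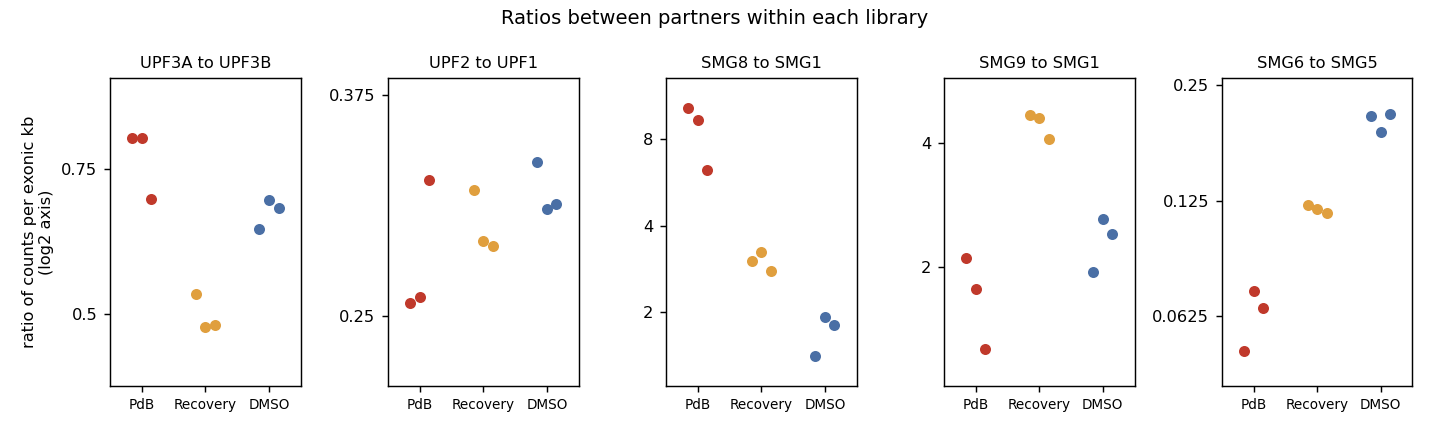
Ratio of counts per exonic kilobase of 5 pairs of members in each PdB, recovery and DMSO library, on log2 axes. SMG8 to SMG1 and SMG6 to SMG5 separate all groups, with PdB at 6.24 to 10.2 and at 0.0508 to 0.0726, while UPF2 to UPF1 overlaps between groups.

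Gene structure was set beside the changes, since PdB acts on splicing. The coding transcripts had 4 introns in SMG8, 9 in UPF3A, 10 in UPF3B, 13 in SMG9, 18 in SMG6, 20 in UPF2, 21 in SMG5, 23 in UPF1 and 62 in SMG1. Classes of all genes went by the introns of the longest transcript, while members were placed by their coding transcript. Both numbers agreed for every member but UPF3A, whose longest transcript had 1 intron. Protein-coding genes with 3 to 5 introns had a median log2 change of 0.082 for PdB against DMSO. SMG8 lay above 95.3% of these 3234 genes. SMG6 lay above 7.23% of the 3210 genes with 11 to 20 introns, whose median was -0.61, while SMG9 lay near the middle of that class, above 52.1% of it. UPF1 and SMG1 lay above 82.5% and 81.1% of the 1594 genes with more than 20 introns, whose median was -0.93. Within the 9 members, Spearman's rho with the change under PdB was 0.083 for intron number and -0.40 for genomic span, given as a description of 9 genes. SMG6 has the longest span of the members, 243933 bases, and SMG8 the shortest, 5848 bases. Gene-level counts do not measure splicing or which transcript form was present.

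**Figure D4:**
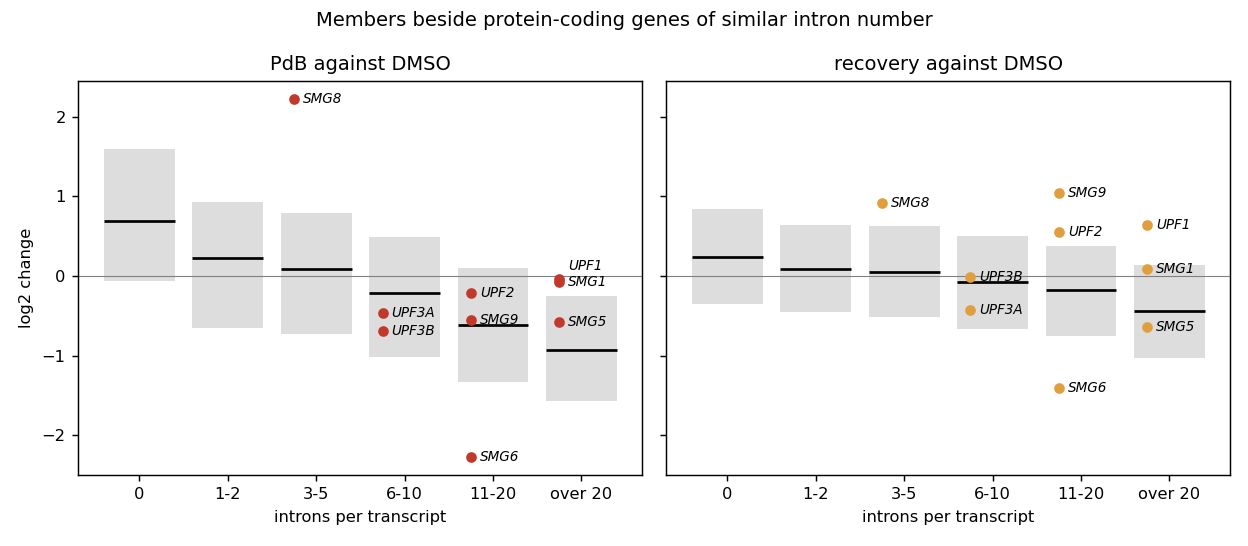
Log2 change against DMSO of each member (points), for PdB on the left and recovery on the right, placed by the introns of its coding transcript. Grey boxes give the middle 50% and black lines the median of protein-coding genes, classed by the introns of their longest transcript. Medians fall from 0.69 without introns to -0.93 above 20 introns under PdB, with SMG8 above and SMG6 below the box of its class.

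The RefSeq table (GRCh38.p14) held starts for 8 members, all but SMG8, and the 250 bases before a start are shown for the 3 of these that rose at recovery against DMSO. Capitals mark any match, on either strand, to the motifs CCAAT, bound by NF-Y, and GGGCGG, bound by SP1, to the ETS motif CCGGAAG, to the E-box CACGTG or to the cAMP response element TGACGTCA. For UPF2 the start farthest upstream was taken. The windows are chr19:18831709-18831958 (plus strand) for UPF1, chr10:12043171-12043420 (minus strand) for UPF2 and chr19:43754963-43755212 (minus strand) for SMG9.
UPF1: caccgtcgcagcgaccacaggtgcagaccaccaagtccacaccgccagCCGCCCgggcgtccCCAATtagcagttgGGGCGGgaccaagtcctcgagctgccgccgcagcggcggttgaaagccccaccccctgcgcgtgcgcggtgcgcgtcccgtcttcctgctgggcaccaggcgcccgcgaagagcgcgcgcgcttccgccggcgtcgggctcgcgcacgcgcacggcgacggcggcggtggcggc
UPF2: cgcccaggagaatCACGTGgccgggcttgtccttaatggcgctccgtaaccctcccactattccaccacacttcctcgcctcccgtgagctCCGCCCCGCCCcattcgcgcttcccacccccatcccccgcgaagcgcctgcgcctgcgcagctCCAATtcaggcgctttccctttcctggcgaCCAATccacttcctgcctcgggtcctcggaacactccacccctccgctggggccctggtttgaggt
SMG9: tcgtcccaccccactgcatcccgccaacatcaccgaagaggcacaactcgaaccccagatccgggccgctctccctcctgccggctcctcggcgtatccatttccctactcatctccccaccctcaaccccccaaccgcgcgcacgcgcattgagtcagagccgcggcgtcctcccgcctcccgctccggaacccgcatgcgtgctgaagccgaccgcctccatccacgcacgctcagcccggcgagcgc
The windows of UPF1 and UPF2 both held CCAAT, present in 32.0% of 35116 such windows over all genes, and GGGCGG, present in 42.6%. Members that did not rise at recovery held these motifs too. GGGCGG stood in at least 1 window of UPF3A, UPF3B, SMG1, SMG5 and SMG6, and CCAAT in windows of UPF3B and SMG5. In UPF2 a pair of GGGCGG matches overlap on the opposite strand, and the window also held CACGTG (6.34% of all windows). That of SMG9 held none of the 5. G and C made up 75.6% of the window in UPF1, 66.0% in UPF2 and 68.8% in SMG9, against a median of 58.0% over all windows. No window of the 8 members held TGATGCAA, which occurs in 0.772% of all windows. A match is a description of letters and not a site of binding.

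The genes most like UPF1 over the 9 libraries, among 13855 others with a mean of at least 100 counts, were CNIH1, CHMP5 and RUNDC1. Likeness was the root mean square difference in log2 CPM centred on DMSO, which was 0.049 for CNIH1, 0.051 for CHMP5 and 0.052 for RUNDC1. Their log2 changes for recovery against DMSO were 0.66, 0.64 and 0.68, beside 0.64 for UPF1. Since these genes were chosen over the same libraries, that closeness follows from the choice. UPF2 was the member nearest to UPF1, at a difference of 0.15 and place 170, and SMG6 the farthest, at 1.76 and place 13132.

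Lists of factors that work beside the members are read against all genes, of which 32% rose and 38.2% fell under PdB (median -0.11) and 30.7% rose and 30.5% fell at recovery (median 0.026). Of 15 further genes of NMD and translation termination, 5 rose and 9 fell under PdB, with a median log2 change of -0.28. The share that rose was near that of all genes. NCBP2, a subunit of the nuclear cap-binding complex, had 313 ± 14.7 CPM in PdB and 82.0 ± 1.56 CPM in DMSO (1.93 ± 0.050), while NCBP1, its partner, had 49.7 ± 2.87 CPM in PdB and 103 ± 4.39 CPM in DMSO (-1.05 ± 0.059). The release factor paralogs also parted, with GSPT2 at 36.2 ± 0.267 CPM in PdB and 11.4 ± 0.279 CPM in DMSO and GSPT1 at 119 ± 6.77 CPM in PdB and 184 ± 3.15 CPM in DMSO. DHX34, a helicase that promotes UPF1 phosphorylation, rose by 1.04 ± 0.053. At recovery against DMSO 8 of the 15 rose and 7 fell, with a median of 0.22, and with GSPT1 at 0.43 ± 0.049 and NBAS, an NMD factor of the endoplasmic reticulum, at -1.88 ± 0.086.

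Of 9 genes of the exon junction complex and its cofactors, 4 rose and 3 fell under PdB (median -0.18), and 4 rose and 2 fell at recovery (median 0.19), both against DMSO, beside the shares over all genes given above. EIF4A3, the helicase that clamps the complex on RNA, had 337 ± 22.6 CPM in PdB and 162 ± 5.66 CPM in DMSO (1.06 ± 0.052). SAP18, a cofactor, rose by 1.53 ± 0.056, and CASC3, a core subunit, changed by -1.19 ± 0.058. Downstream of the SMG factors, 5 of 17 genes of decapping, deadenylation and exonuclease decay rose and 10 fell under PdB (median -0.31), and 9 rose and 4 fell at recovery (median 0.32), both against DMSO, beside the same shares over all genes. CNOT8, a deadenylase, rose by 1.56 ± 0.059, and CNOT1, the scaffold of its complex, changed by -0.93 ± 0.053. DCP2, the decapping enzyme, had 31.3 ± 2.12 CPM in PdB, 76.4 ± 3.67 CPM at recovery and 43.2 ± 2.57 CPM in DMSO. PPP2CA, the catalytic subunit of the phosphatase PP2A, which acts on UPF1, rose by 1.22 ± 0.045 under PdB, and its scaffold PPP2R1A did not pass the test (-0.0057 ± 0.043, adjusted p = 0.91).

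Genes outside the members that are known in human cells to yield transcripts degraded by NMD were mostly higher. Of 16 such genes, 15 rose and 1 fell under PdB, with a median log2 change of 1.17, where 32% of all genes rose. The list leaves out the 9 members, although mRNAs of several NMD factors are NMD targets too. Of these 9, 1 rose and 6 fell under PdB, so the count does not describe NMD targets in general. GADD45B, a stress gene, had 419 ± 41.9 CPM in PdB and 45.1 ± 2.93 CPM in DMSO (3.22 ± 0.070). UPP1, uridine phosphorylase, had 55.7 ± 5.95 CPM in PdB and 67.9 ± 6.65 CPM in DMSO (-0.29 ± 0.080, adjusted p = 0.0040). At recovery 12 rose and 3 fell against DMSO, with a median of 0.76, where 30.7% of all genes rose and 30.5% fell. SRSF2, a splicing factor, had 833 ± 42.7 CPM in PdB, 111 ± 2.33 CPM at recovery and 242 ± 8.09 CPM in DMSO. GAS5, a non-coding host of small nucleolar RNAs, had 111 ± 7.34 CPM in PdB, 164 ± 12.4 CPM at recovery and 71.1 ± 5.04 CPM in DMSO. The list also holds genes of the integrated stress response (ATF4, ATF3 and DDIT3), SR proteins and snoRNA hosts, and several of its members were known from earlier results to be higher in these libraries, so its count is not independent evidence of its direction. Counts per gene do not separate transcript forms that NMD degrades from those it spares.

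**Figure D5:**
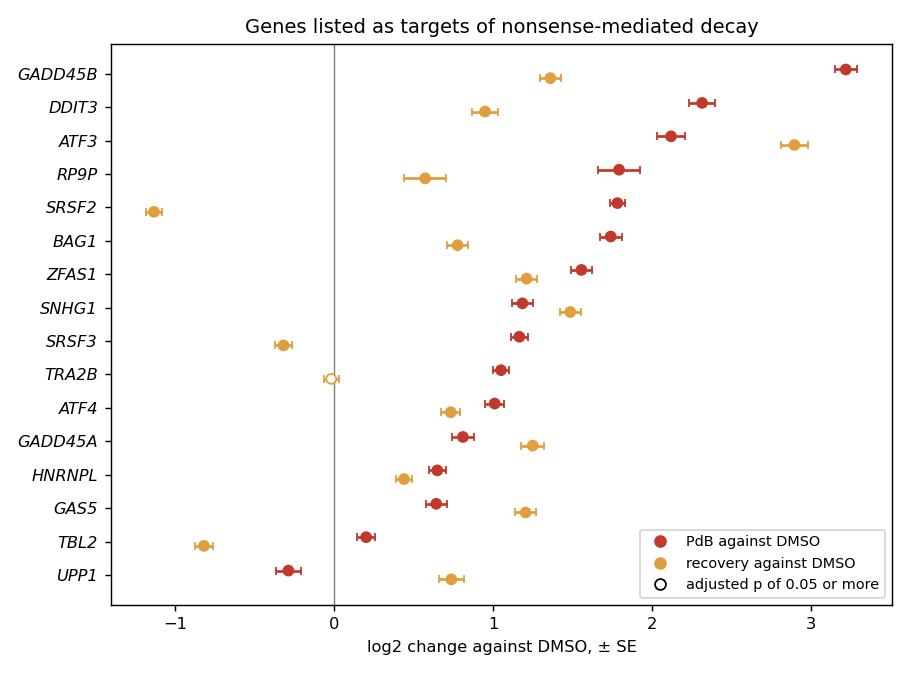
Log2 change against DMSO ± SE of 16 genes outside the members known as NMD targets, for PdB and recovery, ordered by the change under PdB. In PdB 15 lie above 0, with GADD45B at 3.22, while at recovery SRSF2, SRSF3 and TBL2 lie below 0 and pass the test.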

How the data were processed

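Polyadenylated RNA of 9 MDA-MB-231 libraries was sequenced. The authors deposited raw read counts per Ensembl gene, not normalised. Per the submitters' processing notes, the tools were featureCounts 2.0.3, fastp 0.23.2, STAR 2.7.9a, DESeq2 1.30.0 and Picard, on hg38. The sources used here give no roles for them, no annotation release, no strand setting and no rule for reads with several matches. This bears on SMG1, SMG6 and SMG8, which share sequence or exons with other genes.

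A symbol was found for 60463 of 60708 gene IDs. Coordinates, introns and exonic lengths come from GENCODE 29 (GRCh38), which held 58396 of them. Counts were filtered with filterByExpr, scaled by TMM (factors 0.883 to 1.09) and tested two-sided with edgeR 4.0.16 in R 4.3.3, all 9 libraries in 1 fit without a block, with Benjamini-Hochberg adjustment over 20812 genes at 0.05. SE is the absolute log2 change divided by the square root of the F statistic. Likeness was taken on log2 CPM (prior count 2), and ratios used counts plus 0.5. The scripts were tested on simulated data. Pairs of libraries within a group differed by more than counting noise (chi-square per degree of freedom 4.98 to 26.0), so none was taken for a second deposit. The values were largest for PdB replicate 3 against PdB replicates 1 (26.0) and 2 (22.0). Precision was limited by 3 libraries per group. Sequences come from GENCODE 29 and RefSeq.

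Named genes were all members, genes of the lists (chiefly the largest rise and fall that passed) and the 3 genes nearest to UPF1. Members and lists were chosen with earlier results of these data known. The alternatives covered scaling (upper-quartile, RLE, library totals), filtering (none, or a mean of 50 counts or more), the test (DESeq2 1.42.0, a 1.2-fold bound, 0.01 as threshold), the libraries (each omitted, or just the 6 of a comparison), a block for replicate number, the addition of SMG1 copies and, for ratios, 10 added counts.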

Additional observations from a re-analysis of the deposited data

How the results depend on the processing

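Counts of members called, and of all genes called, stayed within 1.5 times of those given under most alternatives. With upper-quartile factors 2 members rose under PdB against DMSO, since UPF1 then passed at 0.12. For recovery against PdB, 8 members rose with library totals, and 2 fell with DESeq2, with a mean of at least 50 counts and with upper-quartile factors, where SMG5 passed. With each library left out in turn, 6 to 7 members fell and 1 rose under PdB, 4 rose and 3 fell at recovery against DMSO, and 5 to 6 rose and 1 fell for recovery against PdB. The same omissions gave 14002 to 14762, 11715 to 13325 and 12931 to 14034 genes called in the 3 comparisons.

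Sign changes involved values near 0. For UPF1 under PdB the value was 0.065 with RLE factors, 0.12 with upper-quartile factors, 0.091 with a mean of at least 50 counts, 0.045 with only the 6 libraries compared and 0.065 with DESeq2, and -0.077 to 0.027 with a library left out. For SMG1 under PdB these were 0.019, 0.074, 0.045, 0.0018 and 0.019, and -0.28 to 0.045, with 0.13 when its copies were added. UPF3B at recovery against DMSO was 0.032 with RLE factors, 0.063 with upper-quartile factors, 0.058 with library totals, 0.026 with a mean of at least 50 counts and 0.032 with DESeq2, and -0.053 to 0.016 with a library left out. UPF3A for recovery against PdB was -0.013 with RLE factors, -0.034 with upper-quartile factors, -0.045 with a mean of at least 50 counts and -0.013 with DESeq2, and -0.064 to 0.11 with a library left out. SMG5 for recovery against PdB was 0.21 with library totals. The cause of these sign changes was not tested. Of 516 values of single members under alternatives, 474 kept direction and side of the threshold. The call of UPF2 under PdB was lost with RLE factors, with upper-quartile factors, with DESeq2, with the filter at a mean of 50 counts (-0.092, adjusted p = 0.20), with only the 6 libraries compared (-0.14, adjusted p = 0.11) and against a 1.2-fold change. UPF3A for recovery against PdB passed with library totals (0.31), and SMG1 did so with library totals (0.43) and without a filter (0.18).

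The log2 ratio of UPF2 to UPF1 in PdB minus DMSO was -0.29 to -0.12 with a library left out, and its test passed without PdB replicate 3 (-0.29). The other 4 ratios kept their direction and calls in each alternative run, with ranges when a library was left out of 2.17 to 2.53 for SMG8 to SMG1, -0.63 to -0.26 for SMG9 to SMG1, -1.81 to -1.55 for SMG6 to SMG5 and 0.18 to 0.30 for UPF3A to UPF3B. Libraries of the same number had deviations from their group means that correlated at -0.0032 to 0.048, against -0.061 to 0.026 for other numbers, so the numbers were not taken to pair samples. With the replicate number as a block, 1 member rose and 6 fell under PdB, 4 rose and 3 fell at recovery against DMSO, 5 rose and 1 fell for recovery against PdB, and 14628, 12922 and 13871 genes were called, with no member's call changed.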
